A study of Mus musculus with 4514 samples.

Results

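The cells described here are single hepatocytes, which form most of the liver's mass, taken at postnatal day 60 (P60) without sorting for DNA content. All such cells were ranked by a score that sets 5 genes of one end of the liver lobule against 5 genes of the other. The score is the log2 of the summed CPM (counts scaled to a total of 1000000 per cell) of Glul, Oat, Slc1a2, Cyp2e1 and Cyp1a2, plus 1, over those of Cyp2f2, Hal, Sds, Ctsc and Hsd17b6, plus 1. The 58 cells with the highest score are called central-end cells, the 58 with the lowest score portal-end cells, and the 58 between them middle cells. The 58 cells at each end belong to a series of 4514 samples. Their levels of the 10 score genes were fixed by the ranking, and every other difference between the ends is given as a description of these cells.

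Per the labels, the P60 cells came from Alb-Cre; Rosa-tdTomato mice, in which the albumin promoter drives Cre in hepatocytes and Cre switches on a red reporter. No label names an animal, so each end counts as 1 pool of cells, and no p-value was computed from cells. Cells of the same genotype at P3, P9, P24 and P30, P60 cells sorted as 2N, 4N or 8N, and P60 nuclei sorted as 2N or 4N were ranked with the same score. Wild-type cells of the Rosa-Cas9 genotype, labelled P60+14d and P12+40d, came from another assay, Smart-seq3, which gives each cell its own library. All other single cells and the nuclei were made with mSTRT-seq, in which barcoded cDNA from wells is pooled into libraries. The tests below use 6 bulk libraries of P60 Alb-Cre; Rosa-tdTomato hepatocytes sorted on surface proteins, 2 labelled PV (CD324+), 2 ML (negative for CD324 and CD73) and 2 CV (CD73+).

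Blood enters a liver lobule at the portal vein and leaves it at the central vein. Hepatocytes along this path divide the work of the liver: those near the portal vein are known for urea synthesis, glucose release and plasma protein secretion, and those near the central vein for glutamine synthesis, bile acid synthesis and drug oxidation. Wnt proteins made by endothelial cells of the central vein keep beta-catenin target genes active in the hepatocytes nearest to it.

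The cells held hepatocyte RNA throughout: Alb, Apoa1, Ttr, Serpina1c and Hnf4a had counts in all 58 cells of each group. Total counts, with ERCC spike-ins left out, were 14982159 over the central-end cells, 12214566 over the middle cells and 10882518 over the portal-end cells. A median central-end cell held 233409 counts and 8400 detected genes, and a median portal-end cell 182372 counts and 7478 genes. With each cell thinned to 110730 counts, which left 53 central-end and 51 portal-end cells, the median number of genes was 7240 against 6608. Endogenous counts per ERCC count, a measure that follows the RNA content of a cell, had medians of 364.3, 334.6 and 251.1 from the central to the portal end. They also differed along the label numbers described next, with a median of 369.9 in the higher numbers that was 1.55 times the median of the numbers up to 90. The part of this in the difference between the ends was not tested. A higher CPM in one end is therefore a larger share of that cell's RNA. It does not give the number of molecules per cell.

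The cells did not form one series. The second principal component of log2 CPM, with 11% of the variance, lay between -17.5 and -5.46 in the 90 cells whose labels carry the numbers 1 to 90, and between 8.23 and 20.7 in the 84 cells numbered 91 and above. The lower range held 26 central-end and 33 portal-end cells, and the higher range 32 and 25. Its median score was -1.4, against 1.48 in the higher range. What the numbers stand for is not given in the sources used here, so counts of genes are given below over all cells and within each range.

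**Figure D1:**
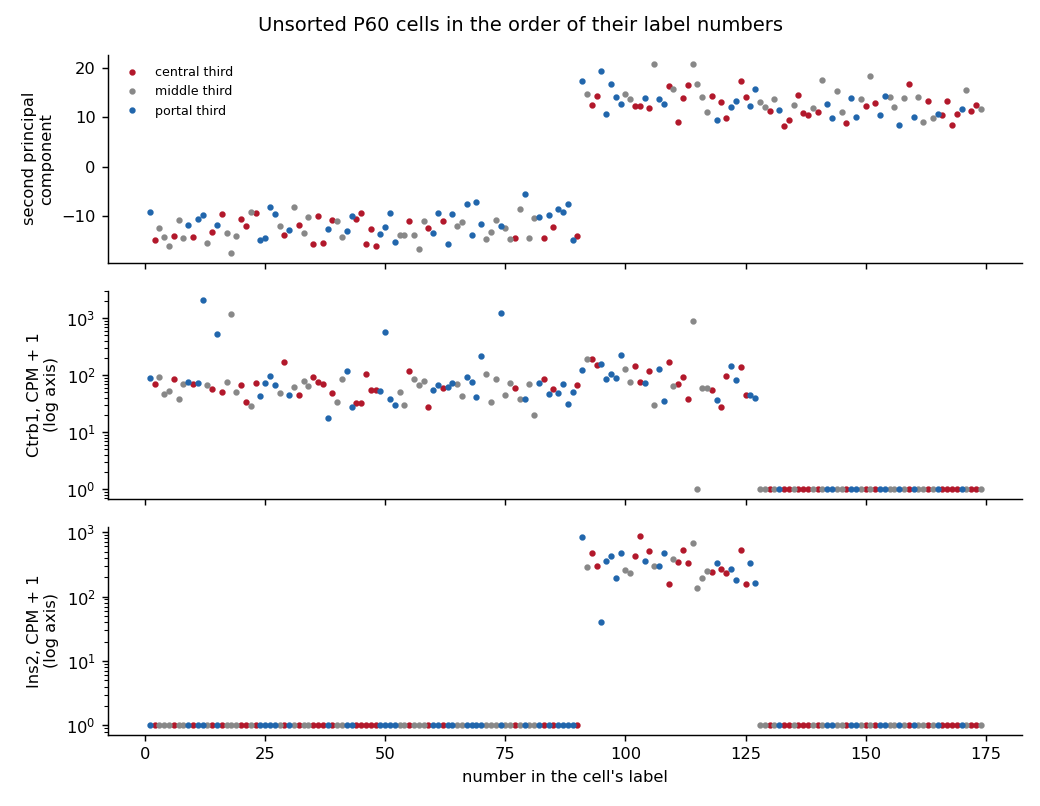
The unsorted P60 cells in the order of the number in their label (horizontal axis), coloured by end. The upper panel shows the second principal component, which changes from at most -5.46 to at least 8.23 between numbers 90 and 91; the lower panels show the CPM + 1 (log axis) of 2 pancreas genes, Ctrb1 and Ins2, whose levels also change along the numbers.

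Promoters of 4 genes are shown because their levels separated the ends and their upstream sequence holds a motif that was searched for. CTTTGA is the core of the site bound by TCF/LEF factors, the DNA-binding partners of beta-catenin, and TGGACTTTG is a form of the site of HNF4A, a factor that hepatocytes depend on. Both were searched on both strands in the 250 bases before the gene start (RefSeq, GRCm38.p6), and the 2 motifs can overlap by CTTTG. The genes were picked after the matches were seen. Lect2 encodes a secreted hepatocyte protein and is known as a beta-catenin target, and Cyp2c40 a cytochrome P450; both had more RNA at the central end. Aldh1b1, a mitochondrial aldehyde dehydrogenase, and Serpina12, the secreted protein vaspin, had more RNA at the portal end. Capitals mark the motif, read on the strand of the gene, at chr13:56548539-56548788 (minus strand), chr19:39812815-39813064 (minus), chr4:45798772-45799021 (plus) and chr12:104044444-104044693 (minus).
Lect2: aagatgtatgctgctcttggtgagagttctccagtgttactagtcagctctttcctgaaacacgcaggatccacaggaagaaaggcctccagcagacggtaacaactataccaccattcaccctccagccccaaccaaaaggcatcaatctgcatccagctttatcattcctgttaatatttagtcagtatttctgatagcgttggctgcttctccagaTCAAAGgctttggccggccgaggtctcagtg
Cyp2c40: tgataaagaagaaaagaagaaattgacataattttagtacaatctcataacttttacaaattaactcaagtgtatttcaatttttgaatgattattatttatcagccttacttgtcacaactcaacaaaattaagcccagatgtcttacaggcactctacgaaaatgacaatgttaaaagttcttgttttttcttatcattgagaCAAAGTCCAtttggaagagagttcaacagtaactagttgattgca
Aldh1b1: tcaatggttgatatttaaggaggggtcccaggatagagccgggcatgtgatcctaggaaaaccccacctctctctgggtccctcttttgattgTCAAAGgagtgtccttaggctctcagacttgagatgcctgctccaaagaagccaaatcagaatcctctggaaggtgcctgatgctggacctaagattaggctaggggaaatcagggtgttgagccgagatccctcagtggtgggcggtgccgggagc
Serpina12: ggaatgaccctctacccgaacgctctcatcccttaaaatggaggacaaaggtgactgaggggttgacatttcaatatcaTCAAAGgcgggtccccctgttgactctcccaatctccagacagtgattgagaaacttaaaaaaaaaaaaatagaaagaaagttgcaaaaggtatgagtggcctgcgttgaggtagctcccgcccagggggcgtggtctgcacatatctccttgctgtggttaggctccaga

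The TCF/LEF core in Lect2 begins 31 bases before the start and lies on the reverse strand, as do those of Aldh1b1 and Serpina12. The capitals in Cyp2c40 are the HNF4A form on the reverse strand. Promoters were given for 71.8% of the 401 genes higher at the central end and 75.4% of the 65 genes higher at the portal end (defined below). CTTTGA was present in 28 central-end promoters (9.72%) and in 11 of the 49 portal-end promoters (22.4%). Of the 3404 promoters of all genes compared, 398 held it (11.7%), as did 3797 of all 27025 promoters given (14%). TGGACTTTG was present in 4 central-end promoters (1.39%), those of Cyp2c40, Cyp2c67, Cyp3a11 and Cyp8b1, in 0 of 49 at the portal end, and in 14 of the 3404 (0.411%). The TCF/LEF core was thus not more frequent in this window of central-end genes than in all genes compared.

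The score ran from -4.86 to 10.5. The last cell inside the central end scored 4.54 and the first outside it 4.39, and the last cell outside the portal end scored -2.27 and the first inside it -2.35, so neither border falls at a gap. Cyp2e1, which oxidises ethanol and small solvents, made up 69.9% of the central-end sum of its own 5 genes, followed by Cyp1a2 (15%), Oat (10.3%), Glul (2.67%) and Slc1a2 (2.24%). Cyp2f2 made up 43.6% of the portal sum, Hal 24.1%, Hsd17b6 22.2%, Ctsc 8.6% and Sds 1.39%. The central sum was thus made up mainly of cytochrome P450 RNA, and the portal sum of Cyp2f2, Hal (histidine ammonia-lyase) and Hsd17b6 RNA. These shares do not show which of the genes set the order of the cells within an end.

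Cyp2e1 spanned 1244 to 11132 CPM in the central-end cells (median 7253) and 8.983 to 441.3 in the portal-end cells (median 137.2), with no overlap. Cyp2f2 spanned 774 to 2235 CPM in the portal-end cells (median 1232) and 0 to 84.43 in the central-end cells (median 18.08), again with no overlap. Both follow from the ranking. Glul, glutamine synthetase, behaved otherwise although it is in the score: it spanned 0 to 4986 CPM in the central-end cells, with a median of 44.1, and 0 to 135.2 in the portal-end cells, with a median of 12.04.

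Strong Glul expression was limited to few central-end cells. Only 3 of the 58 reached 500 CPM, all 3 above 1000, and 9 reached 100. The top cell alone carried 40.8% of the Glul counts of the 58 cells. No middle or portal-end cell reached 500 CPM. In the 10 central-end cells highest in Glul, the median Oat level (ornithine aminotransferase) was 3039 CPM, against 407.2 in the other 48, and the median of Slc1a2, a glutamate transporter, was 1025 against 0. Glul, Oat and Slc1a2 are all in the score that chose these cells, so their joint levels here are no support for a link between them. The 10 cells reached down to 92.28 CPM of Glul, 214.7 of Oat and 0 of Slc1a2. Over the 58 cells Glul ranked with Slc13a3 (Spearman's rho 0.51), Nt5e (0.50), Gulo (0.48), Nkd1 (0.43) and Notum (0.42), but not with Cyp2e1 (0.04) or with total counts (-0.03). Most of the beta-catenin list ranked with it less closely, such as Lgr5 (0.20), Tnfrsf19 (0.11), Cldn2 (0.09), Rnf43 (0.09) and Tcf7l1 (-0.09). Oat had a rho of 0.20 over all 58 cells, so its contrast rests on the cells highest in Glul. These are descriptions across cells of 1 pool, in which Slc13a3 had counts in 16 cells, Nt5e in 29 and Nkd1 in 4. The genes other than Notum were chosen after their values were seen.

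Of the genes outside the score, 4476 reached 20 CPM over all cells pooled with counts in at least 20% of cells. A total of 401 (8.96%) were at least 2-fold higher at the central end and 65 (1.45%) at least 2-fold higher at the portal end. The ratio was 8-fold or more for 26 and 13 of them. In 42.9% of the central-end genes and 44.6% of the portal-end genes the lower end was under 20 CPM. The median log2 ratio of all 4476 genes was 0.19, and 3131 had the higher pooled CPM at the central end. This balance depends on the scaling: with TMM factors, which reduce the weight of a few abundant RNAs, every log2 ratio moved by -0.27, the called genes became 4.45% and 2.19% of the 4476, and the share of calls higher at the central end went from 86.1% to 67%.

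Within the ranges of label numbers the counts changed, and most called genes kept their direction. The lower range alone gave 502 (11.2%) and 82 (1.83%) of the 4476 genes and the higher range 381 (8.51%) and 57 (1.27%). The 401 and 65 genes were chosen over these same cells. Their recurrence within a part of these cells was therefore favoured by the choice and is no support for them. Of the 401 central-end genes, 89.8% were again at least 2-fold higher in the lower range, 77.1% in the higher range and 68.6% in both, and 399 had the same direction in both. Of the 65 portal-end genes, 84.6%, 70.8% and 56.9% were so, and 61 had the same direction in both. The last 47 numbers, with 18 central-end and 11 portal-end cells, gave 74.3% of the 401 and 81.5% of the 65. The 37 numbers before them, with 14 cells of each end, gave 67.3% and 67.7%, and 59 of the 65 portal-end genes had the same direction there.

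The beta-catenin target list of 20 genes had 5 members past the filter: Lect2, Cldn2, Notum, Rgn and Ccnd1. All but Rgn were under 20 CPM in the portal-end pool and passed only through the other cells, so that the filter itself favoured a difference, and their number gives no support to a direction of the list. Of these 5, Ccnd1 (described with the middle cells) was not higher at the central end within the lower label numbers, and bulk gave no call for it. Lect2 (chr13:56542464-56548502) spanned 107.8 to 961.8 CPM in the central-end cells (median 334.2) and 0 to 64.16 in the portal-end cells (median 7.447), without overlap. The pooled levels were 356.4 and 8.546 CPM, a 41.7-fold difference (34 to 51.8, an exact interval that covers counting error only). Cldn2, a claudin of tight junctions (chrX:139800828-139811386), spanned 0 to 102.9 CPM at the central end (median 49.02) and 0 to 13.78 at the portal end (median 0), 48.2-fold in the pools. Notum, a secreted enzyme that inactivates Wnt proteins, was 11-fold higher, at 50.59 against 4.595 CPM. Rgn, regucalcin, was 7.67-fold higher, with 1203 to 2977 CPM in the central-end cells and 12.05 to 909.2 in the portal-end cells.

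The list also holds feedback regulators and receptors of the Wnt pathway too low for the filter. They are named here after their values were seen. Lgr5, a receptor that raises Wnt signalling, stood at 14.1 CPM in the central-end pool, with counts in 35 of 58 cells, and at 0.184 in the portal-end pool, with counts in 2. Axin2, a scaffold of beta-catenin breakdown and itself a target, stood at 6.07 and 0.368 CPM, and the transcription factor Tbx3 at 26.6 and 0.46. The ubiquitin ligases Rnf43 and Znrf3, which remove Wnt receptors, were also present at the portal end, at 17.4 against 4.6 CPM and 21.1 against 7.35. Lgr5 counts in central-end cells were concentrated in the first part of the ranking, as the plot of levels by rank shows.

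**Figure D2:**
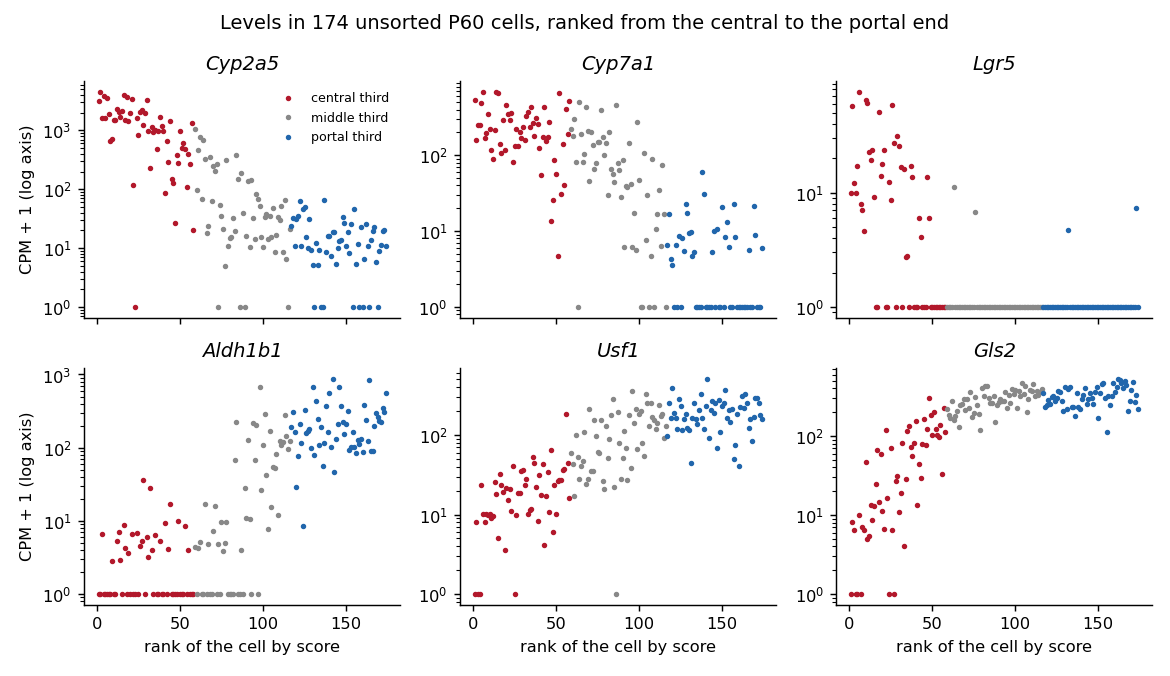
Levels of 6 genes outside the score in each unsorted P60 cell (CPM + 1, log axis) against the rank of the cell, from the highest score to the lowest. Cyp2a5, Cyp7a1 and Lgr5 are higher at the central end and Aldh1b1, Usf1 and Gls2 at the portal end; Gls2 in the middle cells is already close to its portal level (283.5 to 302.8 against 322.3 to 344 CPM, 95% counting intervals of the pools), and Aldh1b1 is not (56.06 to 64.86 against 215.2 to 233.1).

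Drug and solvent oxidation was the largest group on the central side: of 41 members past the filter, 21 were at least 2-fold higher at the central end and 2 at the portal end, with a median log2 ratio of 1.04. Over all 4476 genes the shares called were 8.96% and 1.45%. In 6 of the 21 the portal-end pool was under 20 CPM, so these passed the filter only through the other cells. Cyp2a5, a coumarin hydroxylase (chr7:26835305-26843548), spanned 0 to 4526 CPM in the central-end cells (median 1176) and 0 to 65.73 in the portal-end cells (median 11.11). The pools stood at 1365 and 16.08 CPM, an 84.9-fold difference (73.2 to 99.1) and the largest on the central side of the 4476 genes. Of the portal-end cells, 0 reached the central-end median. Aldh3a2, the fatty aldehyde dehydrogenase (chr11:61223417-61267464), spanned 88.41 to 571.1 CPM against 0 to 22.41, with no overlap, 57.5-fold in the pools. The arachidonic acid and drug oxidising enzymes Cyp2c38, Cyp2c40 and Cyp2c37 were 64-, 63- and 49.5-fold higher. Members of the Cyp2a and Cyp2c families are near copies, and how shared reads were divided among them is not given in the sources used here. Ahr, the dioxin receptor, named after its value was seen, was 14.8-fold higher, with counts in all 58 central-end cells and in 24 portal-end cells.

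Bile acid synthesis and transport showed 11 of 24 measured members at least 2-fold higher at the central end, none at the portal end, and a median log2 ratio of 0.85. The shares of all genes compared were 8.96% and 1.45%, so the lack of portal calls is near the share of all genes. Cyp7a1, the rate-limiting enzyme of the classical pathway (chr4:6265612-6275633), spanned 3.655 to 685.6 CPM in the central-end cells (median 208.8) and 0 to 59.54 in the portal-end cells (median 1.263). The pools stood at 273.1 and 6.065 CPM, a 45-fold difference (35.3 to 58.3), and only the lowest central-end cells fell into the portal range. The steps that follow differed less: Cyp8b1, the hydroxylase that sets cholic acid production, was 4.13-fold higher and Cyp27a1, of the alternative pathway, 3.17-fold. The uptake carrier Slco1b2 was 5.35-fold higher, while the other main uptake carrier, Slc10a1 (named after its value was seen), stood at 725.6 and 753.3 CPM.

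Other genes with the largest central ratios were Serpina7, thyroxine-binding globulin (59.6-fold; 98.52 against 1.654 CPM), Lhpp, a histidine phosphatase (55.1-fold), Fitm1, a lipid droplet protein (44.2-fold), and Npr2, the receptor of C-type natriuretic peptide (43.7-fold). Gm13775, a non-coding transcript that overlaps the pseudogene Mup-ps16, was 57.6-fold higher. In haem synthesis and breakdown, 2 of 9 members were at least 2-fold higher at the central end: Cpox, coproporphyrinogen oxidase, 4.15-fold, and Blvrb, biliverdin reductase B, 3.31-fold. Over all genes compared this share was 8.96%, and a list of 9 is too short to be set apart from it.

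Calls among lipid synthesis genes depended on the scaling and on the label numbers. In both synthesis lists the share called at the central end lay above the 8.96% of all genes. With TMM factors 4.45% of all genes were called there. Of 18 fatty acid synthesis genes, 5 were called at the central end (median log2 0.32, all genes 0.19), among them Scd1, which puts the double bond into fatty acids (2.94-fold), and Mlxipl, the factor that responds to carbohydrate (2.42-fold). Scd1 ranged from 73.99 to 6097 CPM at the central end and from 72.44 to 3703 at the portal end, so the ends overlapped over nearly the whole range. Of 19 cholesterol synthesis genes, 6 were called at the central end (median log2 0.85), led by Hmgcs1 (3.41-fold). With TMM factors, 2 fatty acid synthesis genes were called at the central end and 1 at the portal end (median log2 0.05), and 1 cholesterol synthesis gene at the central end. Within the lower label numbers 3 fatty acid synthesis genes were called at the central end and 2 at the portal end. Of the cholesterol genes, in those numbers 1 of the 19 was called at the central end and 1 at the portal end, and within the higher numbers 4 and 0. Fatty acid oxidation had 2 of 24 called at the central end, a share near the 8.96% of all genes: Acaa1b (2.65-fold) and Ehhadh (2.11-fold), both of peroxisomes. With TMM factors Ehhadh fell under 2-fold (log2 0.81).

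**Figure D3:**
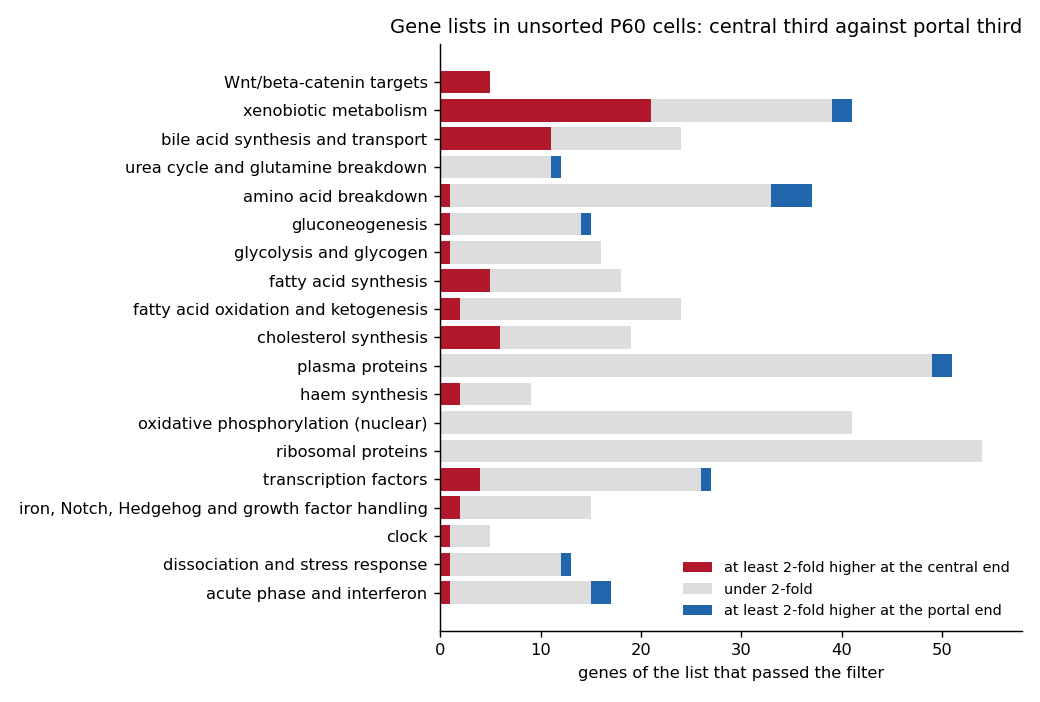
Gene lists in the unsorted P60 cells. Bars give the number of genes of each list that passed the filter (horizontal axis, from 0), split into those at least 2-fold higher at the central end, those under 2-fold, and those at least 2-fold higher at the portal end. Xenobiotic metabolism holds 21 central-end and 2 portal-end genes of 41, and oxidative phosphorylation and ribosomal proteins hold 0. Over all genes compared, 8.96% were called at the central end and 1.45% at the portal end.

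At the portal end the largest ratio of a protein-coding gene was that of Aldh1b1 (chr4:45799022-45804604). It spanned 7.515 to 871.4 CPM in the portal-end cells (median 175.3) and 0 to 34.93 in the central-end cells (median 0), an 83.9-fold difference between the pools (61.4 to 117.8). Cryl1, an enzyme of the pathway that breaks down glucuronate (chr14:57274993-57398529), was 57-fold higher, at 4.475 to 197.2 CPM against 0 to 9.059. Gm4956, of unknown role, was 69.2-fold higher. Gm15690, an antisense transcript, had the highest ratio, 198.7-fold (67.5 to 967), from only 3 counts in the central-end pool. It lies within Sds, a gene of the score, on the opposite strand, and since the counting is not stated to use strand, reads of the pair cannot be told apart.

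Etnppl, which breaks down phosphoethanolamine, was 18.6-fold higher at the portal end, at 273.4 against 14.68 CPM. Hsd17b13, a lipid droplet protein, was 13.1-fold higher, at 537.1 to 1143 CPM in the portal-end cells and 0 to 457.2 in the central-end cells, with no overlap. Serpina12 was 11.6-fold higher, and Rasgef1b, a guanine nucleotide exchange factor, 11.9-fold. Tff3, a secreted trefoil peptide, was 27.5-fold higher in the pools, but its portal-end median was 20.85 CPM and its highest cell 3134, so that few cells carried most of it.

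Usf1, a transcription factor of lipid and glucose genes (chr1:171411313-171419142), was among the 12 largest portal ratios and the one portal call of 27 transcription factors measured. Of all genes compared, 1.45% were called at the portal end and 8.96% at the central end. The central-end pool of Usf1 was under 20 CPM, so Usf1 passed the filter only through the other cells. It spanned 40.12 to 507.6 CPM in the portal-end cells (median 181.7) and 0 to 180.8 in the central-end cells (median 17.21), 10.3-fold in the pools (9.13 to 11.7). None of the 58 central-end cells reached the portal-end median. On the central side 4 factors were called, of which Cebpb was 2.91-fold and Rxra 2.37-fold higher; with TMM factors 2 were called, and Rxra had a log2 ratio of 0.98. Hnf4a, for comparison, stood at 194.3 and 108.2 CPM.

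Nitrogen handling differed by gene. Of 12 urea cycle and glutamine genes, 1 was called: Gls2, liver glutaminase, which releases ammonia from glutamine, 6.26-fold higher at the portal end (5.8 to 6.77), with 110 to 528.2 CPM against 0 to 299.8. Arg1 and Ass1 were 1.98- and 1.95-fold higher at the portal end, just under the threshold, and Glud1 1.79-fold higher at the central end. The median of the list was -0.22. With TMM factors 3 genes of the list were called at the portal end. Over all genes compared, 1.45% were called at the portal end, and 2.19% with TMM factors. Cps1, which fixes ammonia in the cycle's entry step, was near level between the pools, at 1959 CPM at the portal end and 2224 at the central end (named after its value was seen). Within the central end it ranged from 35.36 to 3631 CPM. It stood at 35.36, 87.2 and 163.9 CPM in the cells with Glul above 1000 CPM.

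Amino acid breakdown had 4 of 37 members called at the portal end and 1 at the central end. Over all genes compared these shares were 1.45% and 8.96%. The list thus lay above all genes in portal calls and under them in central calls. Amdhd1 and Ftcd, which act after Hal in histidine breakdown, were 3.1- and 2.22-fold higher at the portal end, and Gldc, of glycine cleavage, 2.91-fold. Prodh, proline dehydrogenase, was 2.66-fold higher at the central end. The median log2 ratio of the list was 0.13, and -0.13 with TMM factors. In gluconeogenesis Fbp1 was 2.06-fold higher at the portal end, with a median of -0.54 over 15 genes. The factor Foxo1, counted in the same list, was 2.35-fold higher at the central end. With TMM factors 3 genes of the list were called at the portal end and 0 at the central end, Foxo1 having a log2 ratio of 0.97. In glycolysis and glycogen handling 1 of 16 was called, Pfkfb1, at 35.78 against 9.005 CPM (3.97-fold at the central end). This share is under the 8.96% of all genes called at that end. Pfkfb1, under 20 CPM in the portal-end pool, passed the filter only through the other cells. The median of that list was 0.11, and -0.16 with TMM factors.

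Secreted plasma proteins leaned to the portal end by small ratios, with a median log2 of -0.38 over 51 genes and 2 called: Apoc2 (3.3-fold) and Hpx, the haem carrier hemopexin (2.38-fold). With TMM factors 5 were called at the portal end. The shares of all genes called there were 1.45% and, with TMM factors, 2.19%. The 41 nuclear genes of oxidative phosphorylation had a median of -0.26 and 0 calls. The largest of them, Atp5g1, stood at 779.1 CPM at the central end and 1130 at the portal end. The 54 ribosomal protein genes had a median of 0.10 and 0 calls, and -0.17 with TMM factors. Metallothionein Mt2, listed among stress genes, was 3.26-fold higher at the portal end, with single cells from 0 to 1009 CPM at the central end and from 0 to 2192 at the portal end.

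Some portal calls rested on 1 range of label numbers. Cyp2a4, a steroid hydroxylase close in sequence to Cyp2a5, was 10.6-fold higher at the portal end over all cells (log2 -3.41), with log2 ratios of 1.07 within the lower numbers and -3.93 within the higher numbers. Its highest portal-end cell held 2442 CPM and the median cell 0. The acute phase gene Saa2 had a log2 ratio of -1.90 over all cells, 2.49 within the lower and -2.29 within the higher numbers, and Lcn2 -1.02, 0.43 and -1.50. The direction of these 3 genes between the ends is therefore not fixed by these cells.

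In the middle cells, 19 genes (0.424%) were at least 1.5-fold above the mean of both ends and 45 (1.01%) at least 1.5-fold below it. Of the 45, 35 were central-end genes: their levels had already dropped in the middle cells, as with Cyp2a5 (135.3 CPM in the middle) and Serpina7 (6.631). Several of the 19 came from single cells. One middle cell gave 98.6% of the middle counts of the interferon-induced Ifit3 and 73.4% of those of Usp18, and 1 cell gave 88.5% of Hba-a1, 91% of Hba-a2 and 92.4% of Hbb-bs, the haemoglobin genes. Ccnd1, cyclin D1, was spread over cells, its top cell holding 7.8% of middle counts. It stood at 46.17 CPM in the middle, 23.03 at the central and 7.351 at the portal end. Its log2 ratio between the ends was 1.65 over all cells and -0.10 within the lower label numbers. In 4 other genes the middle level lay close to that of the higher end. Rasgef1b stood at 30.62 CPM in the middle and 36.66 at the portal end, 1.54 times the mean of the ends, and Gls2 and Gm15690, also higher at the portal end, at 1.52 times. Enho, a secreted peptide, stood at 31.93 CPM in the middle, 32.57 at the central end and 9.373 at the portal end.

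The bulk libraries test the same genes in RNA that the ranking did not use. They held 13144208 to 22729462 counts each. edgeR's quasi-likelihood test compared 10984 genes with Benjamini-Hochberg adjustment, over 6 libraries with 3 residual degrees of freedom and a threshold of 0.05: 1653 genes (15%) were higher in CV than in PV libraries and 1528 (13.9%) higher in PV. Of the 401 central-end genes, 399 were tested, and 310 were higher in CV libraries and 6 in PV libraries. Of the 65 portal-end genes, 56 were tested, and 55 were higher in PV libraries and 1 in CV libraries. Every untested portal-end gene was 2- to 3-fold higher at that end in cells, a class of 37 genes of which 28 were tested. Among the untested genes were the pancreas genes Ctrb1, Reg1 and Clps (see Other observations), which had 0 counts in bulk. The median log2 difference between CV and PV was 0.64 for the central-end genes and -2.40 for the portal-end genes, beside -0.03 for all 4452 genes of the cell comparison that bulk tested. No label says whether the 2 libraries of a group came from different mice, so these p-values measure the spread between libraries, which may be technical.

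Cyp2a5 stood at 91.7 and 11 CPM in the PV libraries, 140.4 and 92.1 in the ML libraries and 2846 and 2856 in the CV libraries. The difference between CV and PV was 5.83 ± 0.66 on the log2 scale (SE; edgeR adjusted p = 1.34e-05), and the 2 PV libraries lay far apart. Cyp7a1 stood at 57.4 and 45 CPM in PV, 105.8 and 104.7 in ML and 365.5 and 370.2 in CV, a log2 difference of 2.85 ± 0.09 (edgeR adjusted p = 5.96e-11). Lect2 stood at 20 and 9.81, 54.3 and 43.3, and 307.5 and 340.2 CPM in that order (4.50 ± 0.21; edgeR adjusted p = 2.16e-09). In all 3 genes the CV libraries lay above all others and the ML libraries above the PV libraries.

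Aldh1b1 stood at 34.2 and 33.5 CPM in the PV libraries, 17.9 and 17.6 in ML and 0.694 and 0.76 in CV, a log2 difference of -5.52 ± 0.17 (edgeR adjusted p = 3.96e-11). Usf1 stood at 37 and 37 CPM in PV, 25.4 and 31.1 in ML and 7.15 and 6.9 in CV (-2.40 ± 0.12; edgeR adjusted p = 4.23e-09). Gls2 stood at 261.6 and 277.1, 220.9 and 239.6, and 17.1 and 11.3 CPM (-4.25 ± 0.13; edgeR adjusted p = 3.92e-11). The groups did not overlap in these genes, and Gls2 in the ML libraries stood near its PV level, as in the middle cells. The ML test set the log level of ML against the mean of the PV and CV log levels. The middle-cell call used the mean of the CPM of both ends, so the 2 measures are unlike. Where PV and CV lie far apart, the mean of the logs is the lower bar. On that scale Gls2 in ML was higher by a log2 difference of 1.90 (edgeR adjusted p = 3.29e-08). Of the 19 genes high in middle cells, 15 were tested and 6 were higher in ML, where 3.3% of all genes were (1.8% without ML library 1 and 1.81% without ML library 2) and 6.33% of the genes compared in cells. Of the 15, 10 were also higher in PV than in CV, and 76.8% of the tested portal-end genes were higher in ML, so a higher level in ML does not set the middle-cell genes apart. Ccnd1 was not among them: it stood at 0.964 and 0.698 CPM in ML, and the edgeR adjusted p was 0.478.

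**Figure D4:**
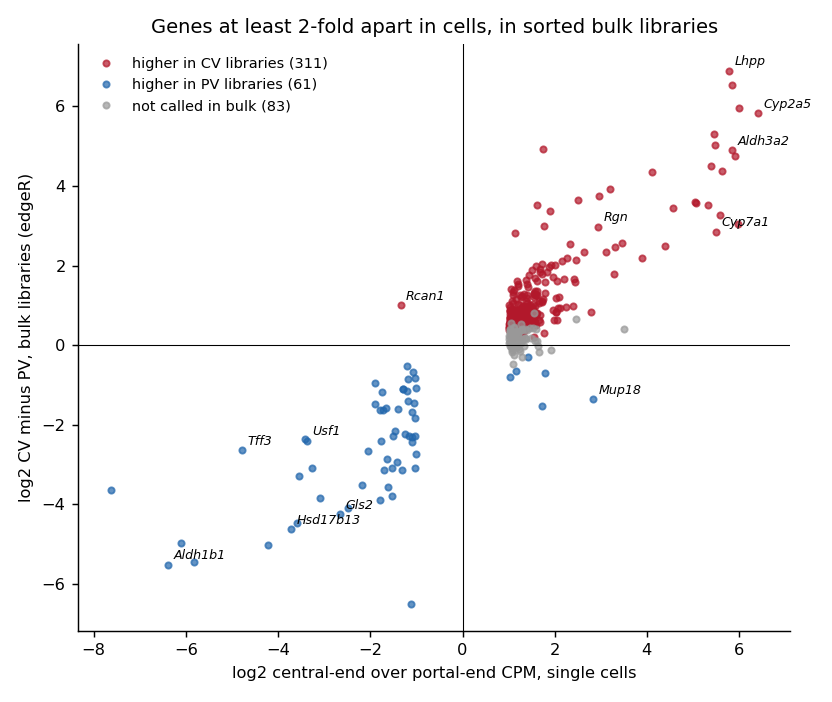
Genes at least 2-fold apart between the ends in single cells: log2 ratio in cells (horizontal axis) against the log2 difference between CV and PV bulk libraries (vertical axis, edgeR), coloured by the bulk call. Most central-end genes lie above 0 and most portal-end genes below it; Mup18 and Rcan1 are called the other way in bulk.

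The bulk calls of central-end genes followed the size of the ratio. Of the 26 genes 8-fold or more higher at the central end, 25 were higher in CV libraries and 0 in PV, with a bulk median of 3.58. In the 2- to 3-fold class, 74.3% of the tested genes were higher in CV and 0.977% in PV, with a median of 0.56. The corresponding portal classes gave 13 of 13 and 27 of 28 higher in PV. A central ratio of 2 to 3 in cells therefore went with a bulk difference well under 2-fold at the median.

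In bulk, 6 central-end genes and 1 portal-end gene were called the other way. Mup18, a urinary pheromone carrier, stood at 57.33 against 8.086 CPM in the end pools, and at 51.4 and 56 CPM in PV and 26 and 16.1 in CV (-1.36 ± 0.21; edgeR adjusted p = 0.000296). Its family consists of near-identical copies. Mup7 (-1.52), Enho (-0.71) and Rdh11 (-0.65), a retinol dehydrogenase, were also higher in PV libraries. Idi1, of cholesterol synthesis, was 2.06-fold higher at the central end and lower in CV libraries by a log2 difference of -0.80 ± 0.07 (edgeR adjusted p = 1.77e-06). Its ratio within the lower label numbers was -0.31 on the log2 scale. Rcan1, a calcineurin inhibitor, was 2.54-fold higher at the portal end and higher in CV libraries by 1.00 ± 0.11 (edgeR adjusted p = 1.14e-05).

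The lists were also counted in bulk, where 869 of the 4452 genes compared in cells were higher in CV and 1075 (24.1%) higher in PV. The counts follow the adjusted p, not a 2-fold ratio. Nuclear oxidative phosphorylation genes, with 0 calls in cells, were higher in PV libraries for 38 of 41. Plasma protein genes were higher in PV for 43 of 52 and in CV for 5. Cholesterol synthesis genes, with 6 central calls in cells, were higher in CV for 4 and in PV for 7 of 21, and fatty acid synthesis genes for 3 and 8 of 19, so that the CV counts of both are near or under the share of all genes. Beta-catenin targets were higher in CV for 14 and in PV for 1 of 17, and xenobiotic genes for 26 and 8 of 44. Urea cycle and glutamine genes were higher in PV for 7 and in CV for 2 of 12. Arg1 (-1.65 ± 0.04) and Ass1 (-1.35 ± 0.03) were among them (edgeR adjusted p = 2.37e-12 and 6.91e-12).

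The sorted proteins CD73 and CD324 are encoded by Nt5e and Cdh1, both too low for the filter in cells. Nt5e stood at 9.745 CPM in the central-end pool and 0.2757 in the portal-end pool, where it rests on 3 counts (35.3-fold, 11.9 to 173.4). Cdh1 stood at 1.268 and 39.79 CPM. Their difference in the bulk libraries was set by the sort.

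Markers of other liver cells were low in the unsorted cells and moved with the bulk groups. Summed CPM of 10 endothelial markers was 5.27 in the central-end and 3.12 in the portal-end pool, of 11 macrophage markers 3.60 and 2.39, and of 10 stellate cell markers 3.54 and 2.21. A median cell held 2.83 CPM of the endothelial sum at the central end and 0 at the portal end. In bulk, 6 of 7 endothelial, 7 of 7 macrophage and 4 of 4 stellate markers tested were higher in CV libraries. Their sums reached 49, 29.6 and 77.8 CPM in the highest library and 1.46, 0 and 0.514 in the lowest. Their part in the bulk differences was not tested. Of the 7 cholangiocyte markers, Spp1 was called at the portal end (2.16-fold; log2 -0.68 within the lower and -3.35 within the higher label numbers), and the sum was 23.7 CPM at the central and 52.2 at the portal end. In bulk Spp1 stood at 3.93 and 14.7 CPM in PV, 0.68 and 47.3 in ML and 0.0694 and 0.127 in CV libraries (-6.51 ± 2.09; edgeR adjusted p = 0.0318), and its part in the bulk differences was not tested either.

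The same ranking was applied within other sets of cells, each with its own ends. In 4N cells, where 3.05% of all genes compared were at least 2-fold higher at the central end and 2.5% at the portal end, 93 of 375 central-end genes (24.8%) and 31 of 47 portal-end genes (66%) were so again. In 8N cells (4.66% and 2.68% of all genes) the shares were 29.6% and 80.4%. In the wild-type Smart-seq3 cells of P60+14d (2.3% and 1.06% of all genes) they were 19.1% and 60%, and in those of P12+40d (2.54% and 1.45%) 20.1% and 65%. In 2N nuclei (5.04% and 4.46% of all genes) they were 25.5% and 66.7%, and in 4N nuclei (4.55% and 4.91%) 19.4% and 73.7%. Among the genes measured in each of these 6 sets, the share was thus higher for portal-end than for central-end genes, but no test compared the shares. Genes that failed a set's own filter were left out of its shares, and portal-end genes were left out more often. In P60+14d cells 351 of the 401 central-end and 35 of the 65 portal-end genes were measured. Counted over all 401 and 65 genes, 67 and 21 were so again in that set, still a larger part of the portal-end genes. In 2N cells (1.4% and 0.488% of all genes) the shares were 8.58% and 10.4%, and 4 of 48 portal-end genes were at least 2-fold higher at the central end. Of these cells 88.8% scored below the portal border and 4.8% above the central one.

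**Figure D5:**
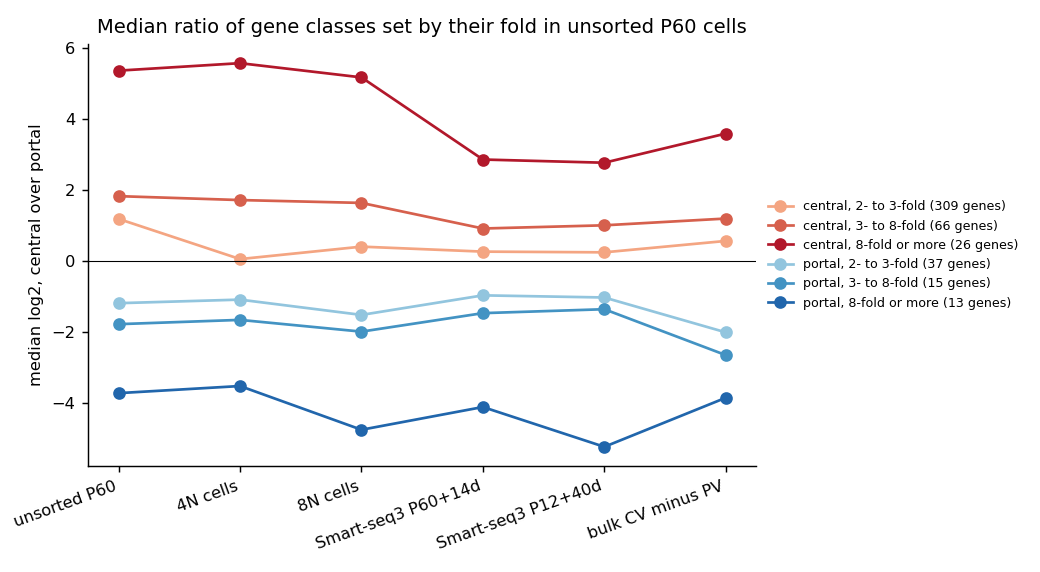
Median log2 ratio of central over portal levels (vertical axis) in the unsorted P60 cells, other sets of cells and bulk (horizontal axis), for genes grouped by their ratio in the unsorted P60 cells. Genes 8-fold or more apart keep medians of at least 2.76 at the central end, and the central-end genes of the 2- to 3-fold class have medians from 0.05 to 0.56 outside the unsorted P60 cells.

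The size class again separated the central-end genes. Of the class 8-fold or more at the central end, 21 of 22 measured genes were at least 2-fold higher in 4N cells, 22 of 23 in 8N cells, 23 of 24 in P60+14d and 21 of 21 in P12+40d cells. Of the 2- to 3-fold class, which made up 77.1% of the central-end genes, 11.2%, 15.1%, 6.93% and 7.69% were. Its median log2 ratio was 0.05, 0.40, 0.26 and 0.24 in those sets, against 1.18 in the unsorted cells. At the portal end, 8 of 8, 8 of 8, 5 of 5 and 6 of 6 measured genes of the largest class were again at least 2-fold higher. Of the portal 2- to 3-fold class, 56%, 64%, 42.9% and 54.2% were, so the classes lay closer together there than at the central end.

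Single genes kept or lost their ratio. Cyp2a5 had log2 ratios of 7.76 in 4N, 7.27 in 8N, 6.42 in P60+14d and 6.16 in P12+40d cells, next to 6.41 here. Cyp7a1 had 6.84 and 6.32 in 4N and 8N cells, but 1.63 and 2.76 in the Smart-seq3 cells and 0.77 in 2N nuclei. Aldh1b1 lay between -6.13 and -4.60 in these 4 sets of cells, and Usf1 between -3.45 and -2.12. Scd1 had 0.99 and 1.52 in 4N and 8N cells and -0.35 and -1.01 in the Smart-seq3 cells. Hmgcs1 likewise went from 0.30 and 1.07 to -0.58 and -0.99. Assay, genotype and age differ together between these sets and cannot be told apart. The portal ends also lie elsewhere on the score: their median was -1.11 in P60+14d and -2.54 in P12+40d cells, against -3.22 here. Of those cells 13% and 17.7% scored below the portal border of the unsorted P60 cells. The part of this in the ratios was not tested.

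Cells of the same genotype at younger ages were ranked alike, and shares again cover measured genes only. At P3 (0.938% of genes at least 2-fold higher at the central end, 0.793% at the portal end) 8.02% of the central-end and 22.9% of the portal-end genes were so again. These shares were 24.6% and 42.4% at P9 (3.17% and 1.92% of all genes), 25.9% and 66.7% at P24 (3.2% and 1.49%), and 57.6% and 78.4% at P30 (6.9% and 1.95%). Cyp2a5 had log2 ratios of -0.13 at P3, -0.18 at P9, 5.38 at P24 and 5.44 at P30. Aldh1b1 was already apart at P3 (-2.32) and had -3.70, -5.41 and -6.19 at the later ages. Cyp7a1 went through 1.73, 2.02, 3.38 and 4.80. The genes were chosen in the P60 cells, so a lower share in another set is no trait of its age, and no test compared the shares. The ends of the younger sets also lie elsewhere on the score: the median score was 4.07 at P3 and 0.0767 at P60, and 0.581% of P3, 0.676% of P9 and 1.12% of P24 cells scored below the portal border of the P60 cells.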

How the data were processed

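Single cells, nuclei and sorted bulk populations were analysed from the tables of counts per gene that the authors deposited, 1 table per assay, with 40824 genes and 92 ERCC entries. The submitters' processing notes name Bowtie2, HISAT2 2.1.0, HTSeq 0.6.0, SAMtools 1.3.1, TopHat, TopHat2 2.1.0, Trimmomatic 0.39, UMI-tools 0.5.0, and featureCounts 1.5.3 and 2.0.0, with the builds GRCm38 and mm10, but no role or order. Whether single-cell counts are reads or molecules, and whether counting used strand, is not given in the sources used here.

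Counts were summed over the cells of each end and scaled to CPM without ERCC. Genes entered at 20 CPM over all 174 cells pooled with counts in 20% of cells, and were called at a ratio of 2 between the ends or 1.5 for the middle cells. Bulk counts were tested in R 4.3.3 with edgeR 4.0.16 (TMM, filterByExpr, quasi-likelihood test over the 3 groups), and DESeq2 1.42.0 was an alternative. Intervals have a confidence level of 95% and, like all single-cell ratios, cover counting error only. Gene positions are GENCODE M21 (GRCm38). A total of 2500 columns of per-sample values were not used.

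The members and lists were chosen with earlier results of these data known. Genes named are the 10 of the score, the 12 largest ratios each way, up to 4 members per list with the largest ratios, the 6 highest in middle cells, Nt5e and Cdh1, and up to 6 called the other way in bulk; others are said to be chosen after their values were seen.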

Additional observations from a re-analysis of the deposited data

How the results depend on the processing

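Of 83 named genes called in cells, none changed direction with the mean of CPM over cells, TMM factors, thinned cells, sixths of the score or a score without Cyp2e1 and Cyp2f2. Of the 83, 12 fell under 2-fold with TMM factors, 16 with the score split at its middle, 12 in the lower and 8 in the higher label numbers. With the score split at its middle Ifit3 had a log2 ratio of -4.25. Shares below are percents of the genes compared. The central share of 8.96% became 4.45% with TMM factors, 18.5% without the filter and 4.07% with the score split at its middle. The portal share of 1.45% became 2.19% with TMM factors and 6.08% without the filter. Middle shares became 7.01% higher and 10.4% lower without the filter, and 2.03% lower in the higher label numbers. The 2 ranges of label numbers were added after seeing the data. In the lower range 5 genes reversed: Cyp2a4 (1.07), Saa2 (2.49), Lcn2 (0.43), Ccnd1 (-0.10) and Idi1 (-0.31). In bulk, without the filter, 9.4% were higher in CV and 8.83% in PV. ML above the ends ranged from 1.8% to 3.52% and ML below them, 2.23% with all libraries, from 0.731% to 2.5% when 1 library was left out. Central-end genes higher in CV ranged from 67.2% to 78.2% and portal-end genes higher in PV from 94.7% to 98.2% over all alternatives; DESeq2 called 1207 and 1261 genes in all. With the replicate number as a block the shares were 14.7% in CV, 13.7% in PV, 78.2% of central-end and 98.2% of portal-end genes, and 3.16% and 2.19% for ML. Same-numbered libraries had correlations of 0.12, 0.10 and 0.07, so the numbers were not taken to pair them. Genes under about 20 CPM rest on few counts per cell.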

Other observations

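The unsorted P60 cells also held RNA of pancreas genes, at levels that changed along the label numbers. The genes were chosen after their values were seen. Ctrb1, a chymotrypsinogen, and Prss2, a trypsinogen, had counts in 90 of 90 cells numbered 1 to 90 (106.4 and 64.5 CPM pooled) and in 36 and 35 of the 37 cells with the next numbers (98.4 and 42.3 CPM). In the 47 cells with the highest numbers both had 0 counts. Ins2, insulin, had 0 counts in the cells numbered 1 to 90, counts in 37 of the next 37 (349.8 CPM) and 0 counts in the last 47. Over the 58 cells of each group, Ctrb1 had counts in 40 central-end, 39 middle and 47 portal-end cells, and Ins2 in 14, 9 and 14. Pooled levels at the portal and the central end were 104.9 and 45.12 CPM for Ctrb1. They were 46.13 and 17.09 CPM for Reg1 and 40.71 and 17.35 for Clps, also pancreas genes. Ctrb1, Reg1 and Clps passed the filter and are thus among the 65 portal-end genes. Prss2 stood at 56.05 and 28.3 CPM, and Ins2 at 56.88 and 58.74. Ctrb1 had counts in 64.4% of P30 cells (150 CPM), in at most 3.61% of the cells sorted as 2N, 4N or 8N, and in none of the 6 bulk libraries.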
